A study of Mus musculus with 2 samples.

Results

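Mast4, Adamtsl1 and Rbfox1 are 3 of the 32285 genes counted in single-cell libraries of mouse blood, and were taken by gene symbol over every barcode, including those rich in mitochondrial RNA. They had been picked because they stood at the head of a barcode cluster in these same libraries, so their levels are given as a description, with no test. The question was whether they were found wherever nuclear RNA was found, or in barcodes that also carried Wt1, Muc16, Col3a1 or Dcn. The blood came from wild-type mice after burn/tenotomy, a skin burn combined with the cutting of a tendon. It was passed through the iChip, a microfluidic sorter, and the recovered cells, labelled as cMPCs and blood cells, were barcoded on the 10x Chromium. Replicate 1 held 1008 barcodes and replicate 2 held 849, with 0 barcodes in common. Both belong to 1 group, and uninjured animals were not analysed here. The labels do not say whether each replicate was drawn from its own mouse, so differences between the libraries can be purely technical.

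Mast4 is a large member of the microtubule-associated serine/threonine kinases. Adamtsl1 is a secreted glycoprotein of the ADAMTS-like family, which shares the thrombospondin repeats of the ADAMTS proteases but lacks their protease domain and sits in the extracellular matrix. Rbfox1 is an RNA-binding protein that sets alternative splicing, best known in neurons, heart and skeletal muscle. Wt1 is a transcription factor and Muc16 a membrane mucin, both typical of mesothelium, the cell layer that lines body cavities. Col3a1, a fibrillar collagen, and Dcn, the proteoglycan decorin, are typical of fibroblasts. Malat1 is an abundant long non-coding RNA kept in the nucleus, and its count is used here as a rough guide to how much nuclear RNA a barcode holds. Very long genes gather many reads of unspliced nuclear RNA where introns are counted, because nearly all their sequence is intron.

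All 3 genes are of that kind. In GENCODE M21, which uses the mm10 assembly, Mast4 (ENSMUSG00000034751) spans 602 kb on the minus strand of chromosome 13, from 102732486 to 103334497, and 5.37% of that length is exon. Adamtsl1 (ENSMUSG00000066113) spans 914 kb on the plus strand of chromosome 4, from 85514172 to 86428385, with 1.40% exon. Rbfox1 (ENSMUSG00000008658) spans 1526 kb on the plus strand of chromosome 16, from 5885355 to 7411526, with 0.288% exon. Within Mast4 lie Cd180, 1700099I09Rik and Gm17160 on the opposite strand, and on the same strand Sh3gl2 overlaps Adamtsl1 and 1700123O21Rik overlaps Rbfox1, so reads of these genes could be shared where the counting did not separate them. The partners had fewer UMIs (counted RNA molecules) than the 3 genes had in all: Cd180 had 28 in replicate 1 and 5 in replicate 2, and Sh3gl2 had 5 and 2. The 28 of Cd180 is still more than the 18 UMIs that Mast4 had in leukocyte-marker barcodes of replicate 1, defined below. How many reads were shared was not tested.

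Starts of Mast4 and Rbfox1 are shown because genes of such length can begin at distant promoters, and the counts used here do not separate their transcripts. No start window was available for Adamtsl1. The sequences below are RefSeq's on GRCm38.p6, run 5′ to 3′ on the gene's strand from 250 bases before to 50 bases after an annotated start, and carry CpG pairs in capitals. The Mast4 window lies at chr13:103334443-103334742 on the minus strand, and the Rbfox1 windows lie at chr16:5884543-5884842 and chr16:7069585-7069884 on the plus strand.
Mast4: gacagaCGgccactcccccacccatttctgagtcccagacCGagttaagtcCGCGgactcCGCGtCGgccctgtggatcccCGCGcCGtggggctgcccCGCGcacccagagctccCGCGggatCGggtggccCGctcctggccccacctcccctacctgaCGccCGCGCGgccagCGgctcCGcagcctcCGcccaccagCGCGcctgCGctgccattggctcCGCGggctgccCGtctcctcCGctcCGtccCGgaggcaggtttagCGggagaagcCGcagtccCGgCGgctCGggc
Rbfox1, upstream start: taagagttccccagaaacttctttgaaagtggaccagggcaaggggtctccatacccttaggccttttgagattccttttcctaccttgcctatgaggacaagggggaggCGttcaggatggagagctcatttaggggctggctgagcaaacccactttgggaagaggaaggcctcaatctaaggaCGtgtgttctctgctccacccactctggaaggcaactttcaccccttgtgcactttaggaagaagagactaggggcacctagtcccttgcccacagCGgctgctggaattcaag
Rbfox1, downstream start: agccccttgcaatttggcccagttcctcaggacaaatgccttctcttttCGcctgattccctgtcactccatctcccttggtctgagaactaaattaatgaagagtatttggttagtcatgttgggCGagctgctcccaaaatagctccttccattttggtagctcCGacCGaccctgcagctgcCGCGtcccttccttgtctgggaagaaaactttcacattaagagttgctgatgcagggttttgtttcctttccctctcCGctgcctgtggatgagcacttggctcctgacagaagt
The Mast4 window holds 37 CpG pairs and 75% G and C, against a median of 7 CpG pairs over 32851 mouse promoter windows, of which 5.58% hold as many. The Rbfox1 windows, 1185 kb apart, hold 3 and 7 CpG pairs, numbers that 76.7% and 52.1% of the windows reach. The Wt1- and Egr-type letters GCGTGGGNG, found in 1.90% of all windows on either strand, and GCGGGGGCG, found in 2.91%, are in none of these.

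Both libraries were dominated by red-cell RNA. Replicate 1 had 3967318 unique molecular identifiers (UMIs, 1 for each captured RNA molecule) and replicate 2 had 3329292. Haemoglobin genes took 73.5% of them in replicate 1 and 75.1% in replicate 2, and a barcode held a median of 2219 UMIs in replicate 1 and 1643 in replicate 2. Barcodes were sorted by the genes they carried. Anchor-positive barcodes had at least 1 UMI of Wt1, Muc16, Col3a1 or Dcn and numbered 69 in replicate 1 and 52 in replicate 2. Leukocyte-marker barcodes had at least 2 UMIs of 20 leukocyte genes and no anchor UMI, and numbered 129 in replicate 1 and 30 in replicate 2. Barcodes with Malat1 and neither of these marks numbered 37 and 21, and the remaining barcodes, most of them filled with haemoglobin or mitochondrial RNA, numbered 773 and 746. The leukocyte-marker barcodes of replicate 2 were thin: only 7 of 30 had a UMI of Ptprc, the common leukocyte antigen, against 78 of 129 in replicate 1, and their median mitochondrial share was 89.6%, against 20.2% in replicate 1. Intervals given below are exact at 95%, a count of 0 is given the limit that 3 counts would set, and both cover counting error only.

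Each of the 3 genes was concentrated in the anchor-positive barcodes. Mast4 had 210 UMIs in replicate 1, of which 88.1% were in anchor-positive barcodes, and 370 UMIs in replicate 2, of which 98.6% were. Adamtsl1 had 199 and 310 UMIs, with 95.5% and 91.9% of them in anchor-positive barcodes. Rbfox1 had 188 and 375 UMIs, with 71.8% and 81.9% there, and was the most widely scattered of the 3. These barcodes were 6.85% of replicate 1 and 6.12% of replicate 2. Of the UMIs outside mitochondrial and haemoglobin genes, they held 90070 of 684967 in replicate 1 and 115433 of 528860 in replicate 2. Of the Malat1 UMIs, they held 5076 of 10642 in replicate 1 and 3604 of 4144 in replicate 2. Malat1 was thus also concentrated there, most clearly in replicate 2.

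Mast4 was found in 28 of 69 anchor-positive barcodes of replicate 1 (40.6%, Clopper-Pearson interval 28.9 to 53.1) and in 27 of 52 of replicate 2 (51.9%, 37.6 to 66.0). It was found in 12 of 129 leukocyte-marker barcodes of replicate 1 (9.30%, 4.90 to 15.7) and in 1 of 30 of replicate 2 (3.33%, 0.0844 to 17.2). Adamtsl1 was found in 34.8% and 46.2% of anchor-positive barcodes, against 0 of 129 leukocyte-marker barcodes in replicate 1 (which allows up to 2.33%) and 2 of 30 in replicate 2 (6.67%). Rbfox1 was found in 42.0% and 51.9% of anchor-positive barcodes, against 2 of 129 and 1 of 30 leukocyte-marker barcodes. Barcodes with no marker and at most 20% mitochondrial UMIs are called red-cell barcodes below. They were not chosen by haemoglobin, which gave 87.9% of their UMIs in replicate 1 and 86.6% in replicate 2. Mast4 was found in 0 of 473 and 0 of 493 of them, which allows shares of up to 0.634% and 0.609%, at median depths of 5937 and 3774 UMIs. Adamtsl1 was found there in 3 of 473 (0.634%) and 15 of 493 (3.04%), and Rbfox1 in 4 of 473 (0.846%) and 0 of 493. The 2 of 30 leukocyte-marker barcodes of replicate 2 with Adamtsl1 (interval 0.818 to 22.1) are too few to set apart from the level in red-cell barcodes. The share of leukocyte-marker barcodes with Mast4 in replicate 1 was above that level, at a lower median depth of 1244 UMIs. Adamtsl1 was not counted beside it: Mast4, Adamtsl1 and Rbfox1 had 18, 0 and 2 UMIs there, against 185, 190 and 135 in anchor-positive barcodes of the same library.

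**Figure D1:**
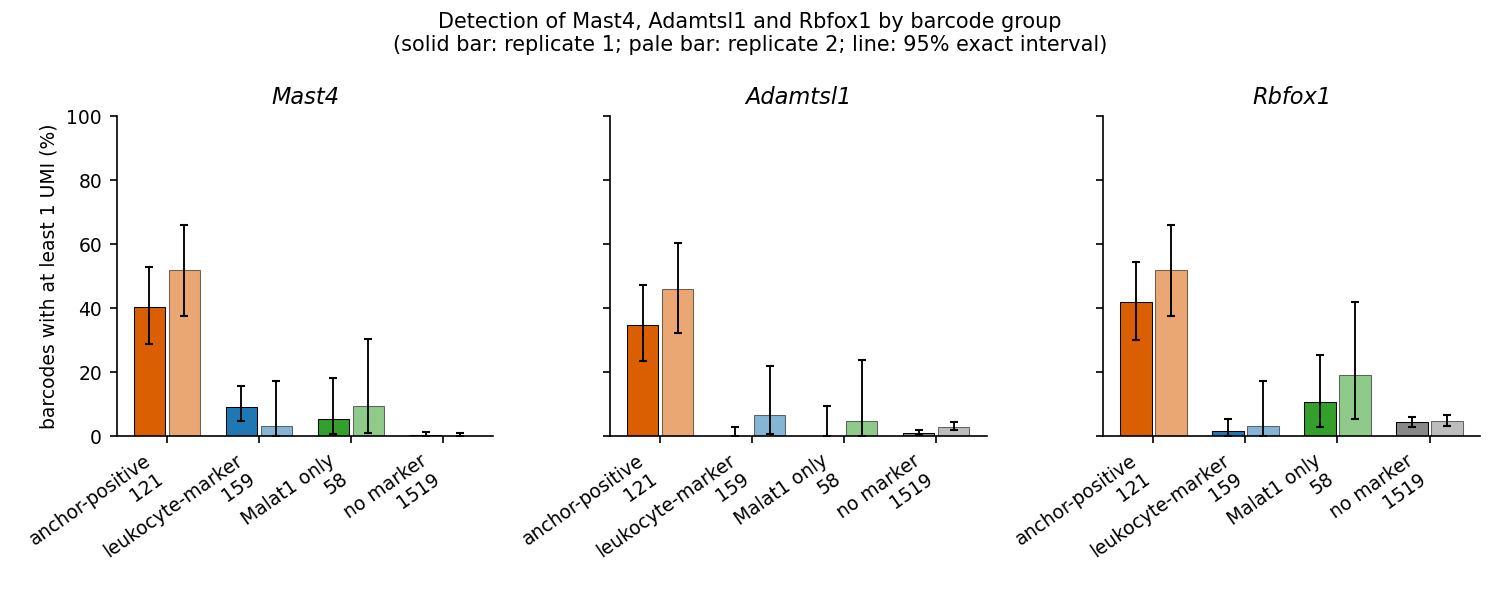
Share of barcodes (%) with at least 1 UMI of each gene in anchor-positive, leukocyte-marker, Malat1-only and unmarked barcodes, with the number of barcodes of both libraries under each group; solid bars are replicate 1, pale bars replicate 2, and lines are exact 95% binomial intervals. The anchor-positive bars lie between 34.8% and 51.9%, and the highest other bar is Rbfox1 in the Malat1-only barcodes of replicate 2 at 19.0%.

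The levels differed more than the shares. Summed over anchor-positive barcodes, Mast4 had 1202 counts per 1000000 UMIs (CPM) in replicate 1 and 2289 in replicate 2, against 77.0 and 24.8 CPM over leukocyte-marker barcodes. The ratio was 15.6 in replicate 1 (exact interval 9.62 to 26.9) and 92.2 in replicate 2 (16.5 to 3653), the wide interval coming from a leukocyte-marker count of 1 UMI. Adamtsl1 had 1235 and 1787 CPM in anchor-positive barcodes, against 0 and 49.6 CPM in leukocyte-marker barcodes, and the ratio in replicate 2 was 36.0 (9.88 to 299). Rbfox1 had 877 and 1925 CPM, against 8.55 and 24.8 CPM, with ratios of 103 (27.9 to 856) and 77.6 (13.8 to 3074). As ratios of the means of both libraries these came to 34.3 for Mast4, 60.9 for Adamtsl1 and 84.0 for Rbfox1, and Malat1 measured the same way gave 1.60. A few barcodes held much of the signal: without the barcode richest in the gene, the anchor-positive level of Rbfox1 was 647 and 1466 CPM, that of Adamtsl1 859 and 1416 CPM, and that of Mast4 1043 and 2189 CPM.

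A fixed fold rule gives the setting for these ratios. Of 4088 genes with at least 20 UMIs in the compared barcodes, 31 (0.758%) stood at least 10-fold higher in anchor-positive than in leukocyte-marker barcodes in both libraries, with groups under 3 UMIs set to 3, and all 3 genes were among them. Since the genes were chosen from this contrast, their presence there is no finding. The 31 also hold the anchors Col3a1, Dcn and Muc16, whose leukocyte-marker count was 0 by construction. Wt1, also at 0 there, came to 8.17-fold in replicate 2 and was not among them. With this floor and so few leukocyte-marker UMIs in replicate 2, a gene had to be well counted to pass. No gene of the 31 had under 120 anchor-positive UMIs in that library. The shares called, over all genes and by length, thus depend on how well a gene was counted. Genes over 100 kb were 24 of the 31, which is 1.94% of the 1235 such genes, and shorter ones were 7, which is 0.245% of 2853. Among the long ones were Gpm6a, a membrane glycoprotein, the guidance receptor Plxna4, the nuclear receptor Rora and the transcription factors Bnc2, Nfib and Sox6. The short ones included Igfbp5, Mgp, Upk3b and complement C3.

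Anchor-positive barcodes with few mitochondrial UMIs mostly held Mast4 and Adamtsl1. Among those with at most 20% mitochondrial UMIs, 20 in replicate 1 and 18 in replicate 2, Mast4 was found in 17 and 15, Adamtsl1 in 16 and 14, and Rbfox1 in 10 and 13. Mast4 ran from 0 to 35 UMIs per barcode in replicate 1 (median 4.5) and from 0 to 62 in replicate 2 (median 9.5). Adamtsl1 ran from 0 to 68 (median 2) and from 0 to 89 (median 4). Rbfox1 ran from 0 to 42 (median 0.5) and from 0 to 104 (median 6), and its richest barcode held 50% of its UMIs in this set in replicate 1 and 42.3% in replicate 2. The genes did not simply follow each other: the deepest barcode of replicate 1, with 11842 UMIs, had 68 of Adamtsl1, 19 of Mast4 and 2 of Rbfox1, while one with 10101 UMIs had 16, 35 and 42. In replicate 2 a barcode of 12224 UMIs had 34 of Mast4, 10 of Adamtsl1 and 0 of Rbfox1. Spearman's rho over these barcodes, a description with no test, was 0.70 and 0.88 between Mast4 and Adamtsl1 UMIs and 0.44 and 0.43 between Mast4 and Rbfox1. All points share their library, and the barcode's depth enters too: as shares of the barcode's UMIs, rho was 0.48 and 0.70 for Mast4 with Adamtsl1, and 0.12 and 0.40 for Mast4 with Rbfox1.

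**Figure D2:**
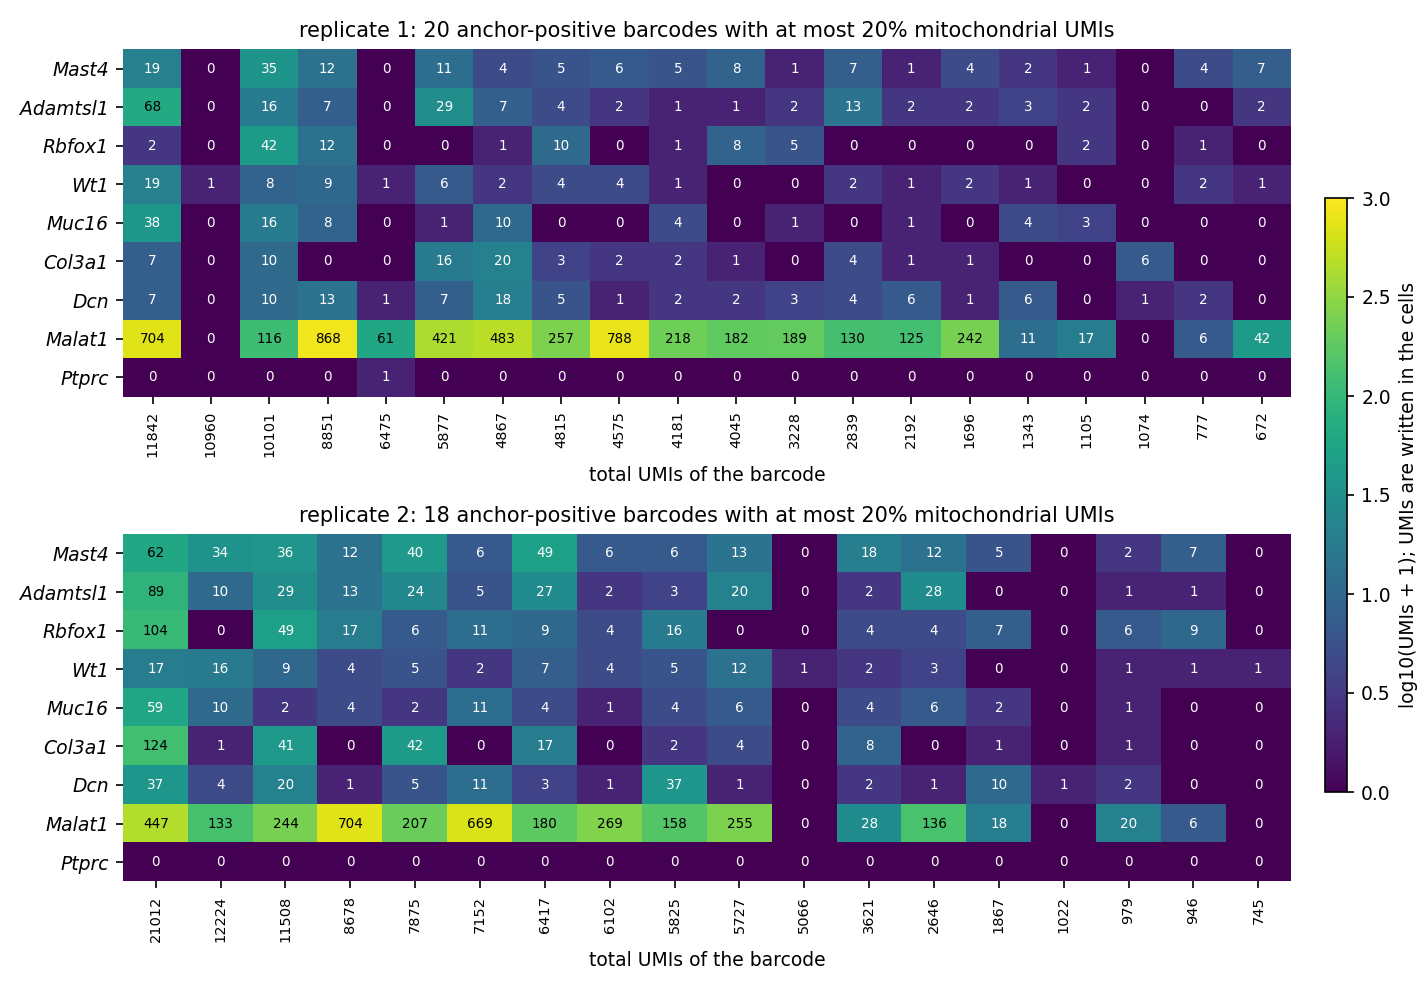
UMIs of the 3 genes, the 4 anchors, Malat1 and Ptprc in each anchor-positive barcode with at most 20% mitochondrial UMIs, 20 in replicate 1 (top) and 18 in replicate 2 (bottom); barcodes run from deepest to shallowest with their total UMIs below, colour is log10(UMIs + 1) and the count is written in each cell. Mast4 and Adamtsl1 fill most columns, Rbfox1 leaves 10 columns of replicate 1 and 5 of replicate 2 at 0, and Ptprc has 1 UMI in 1 column.

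Higher counts went with the anchors more closely than lone UMIs did. Mast4 reached 5 UMIs or more in 15 barcodes of replicate 1 and 17 of replicate 2, and all of these were anchor-positive. Adamtsl1 did so in 9 and 11 barcodes, all anchor-positive. Rbfox1 did so in 9 and 14, of which 9 and 13 were anchor-positive. Barcodes with exactly 1 UMI were anchor-positive in 6 of 18 and 4 of 9 cases for Mast4, in 5 of 12 and 6 of 31 for Adamtsl1, and in 10 of 38 and 7 of 34 for Rbfox1. Depth and mitochondrial share were not held equal in this comparison, and both bear on whether an anchor UMI is seen. All 3 genes together were found in 14 barcodes of replicate 1 and 19 of replicate 2, of which 13 and 19 were anchor-positive. None of these 33 barcodes had a Ptprc UMI, which allows a share of up to 9.09%, whereas 32 had Malat1.

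Those 33 barcodes were rich in mesothelial markers, a list that holds Wt1 and Muc16 as the fibroblast list holds Col3a1 and Dcn. All 15 genes of the mesothelial list were detected among them in each library, with 462 UMIs in replicate 1 and 808 in replicate 2, and no barcode had fewer than 2 UMIs of the list. The fibroblast list gave 174 UMIs over 8 of its 15 genes and 546 UMIs over 10. The 20 leukocyte genes gave 5 and 9 UMIs in all, the 10 endothelial genes 4 and 3, the 10 epithelial genes 18 and 10, and the 10 platelet genes 11 and 17, the last in 6 of 14 and 9 of 19 barcodes. Adipocyte genes gave 2 and 2, and smooth muscle and pericyte genes 3 and 5. The part of these other lists in the counts was not tested. Neuronal genes, 10 in the list and including Snap25, Tubb3 and Stmn2, gave 0 and 0 UMIs, and the 10 skeletal muscle genes gave 0 and 1. Rbfox1, known for neurons and muscle, was thus counted here in barcodes where the markers of both were at or near 0.

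Over all barcodes, co-detection differed between the anchors, and was higher with Wt1 and Muc16 than with Dcn. The gap between Wt1 and Dcn was not seen for any of the 3 genes in barcodes with at most 20% mitochondrial UMIs. There Mast4 was in 14 of 16 and 14 of 16 barcodes with Wt1, and in 15 of 17 and 14 of 15 with Dcn. Adamtsl1 was in 13 of 16 and 14 of 16 with Wt1, and in 14 of 17 and 13 of 15 with Dcn. Rbfox1 was in 7 of 16 and 12 of 16 with Wt1, and in 9 of 17 and 12 of 15 with Dcn. With Muc16 in the same barcodes, Mast4 was in 10 of 10 and 14 of 14, Adamtsl1 in 10 of 10 and 13 of 14, and Rbfox1 in 7 of 10 and 12 of 14. The counts that follow are over all barcodes. Of barcodes with Wt1, 18 of 20 in replicate 1 and 18 of 21 in replicate 2 had Mast4, against 2.83% and 1.69% of barcodes without Wt1. Of barcodes with Muc16, 14 of 16 and 18 of 21 had Mast4. The fibroblast-type anchors overlapped less, with Mast4 in 19 of 31 and 18 of 25 barcodes with Col3a1 and in 24 of 54 and 22 of 35 with Dcn. Of the 54 Dcn barcodes of replicate 1, 37 had over 20% mitochondrial UMIs, against 4 of the 20 with Wt1. Adamtsl1 was in 16 of 20 and 17 of 21 barcodes with Wt1, against 1.62% and 3.86% of those without, and in 21 of 54 and 20 of 35 with Dcn. Rbfox1 was in 10 of 20 and 15 of 21 barcodes with Wt1 and in 12 of 16 and 19 of 21 with Muc16, against 5.75% and 5.92% of barcodes without Muc16. Seen from the 3 genes, 28 of 46 and 27 of 32 Mast4 barcodes had an anchor, as did 24 of 32 and 24 of 49 Adamtsl1 barcodes and 29 of 69 and 27 of 68 Rbfox1 barcodes.

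Malat1 was found in 39 of 46 and 28 of 32 Mast4 barcodes, in 22 of 32 and 23 of 49 Adamtsl1 barcodes, and in 21 of 69 and 27 of 68 Rbfox1 barcodes. Seen from Malat1, detection of the 3 genes differed with the anchor. Among barcodes with Malat1 and no anchor, Mast4 was found in 13 of 132 in replicate 1 and 2 of 30 in replicate 2, Adamtsl1 in 0 and 1, and Rbfox1 in 4 and 4. Among barcodes with Malat1 and an anchor, Mast4 was found in 26 of 36 and 26 of 30, Adamtsl1 in 22 and 22, and Rbfox1 in 17 and 23. With each barcode thinned to 500 UMIs, the shares for Mast4 were 44.9% and 60.9% with an anchor and 4.19% and 2.15% without.

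The contrast was clearest in barcodes rich in Malat1. With at least 100 Malat1 UMIs and an anchor, there were 14 barcodes in replicate 1 and 11 in replicate 2, and all had Mast4 and Adamtsl1, while 8 and 9 had Rbfox1. With at least 100 Malat1 UMIs and no anchor, there were 20 and 2 barcodes, of which 5 and 0 had Mast4, with at most 3 UMIs each, and 0 had Adamtsl1 or Rbfox1, which allows a share of up to 15% of the 20 barcodes of replicate 1. In replicate 1 these barcodes held 1696 to 11842 UMIs with an anchor (median 4378) and 1135 to 10304 without (median 4276.5). In replicate 2 they held 2646 to 21012 and 1611 to 3134. Per 100 Malat1 UMIs, anchor-positive barcodes with at most 20% mitochondrial UMIs had 2.72 and 8.87 UMIs of Mast4, 3.31 and 7.31 of Adamtsl1, and 1.73 and 7.08 of Rbfox1. All leukocyte-marker barcodes together had 0.335 and 0.211 of Mast4, 0 and 0.422 of Adamtsl1, and 0.0372 and 0.211 of Rbfox1, with 5379 and 474 Malat1 UMIs behind these values. Barcodes with Malat1 and neither mark averaged 2.32 of Mast4, 0.758 of Adamtsl1 and 5.39 of Rbfox1 over both libraries. All anchor-positive barcodes averaged 6.89, 5.83 and 5.59, so by this measure Rbfox1 was alike in both. The values without a mark rest on 5, 1 and 11 UMIs of the genes, beside 187 and 66 Malat1 UMIs.

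**Figure D3:**
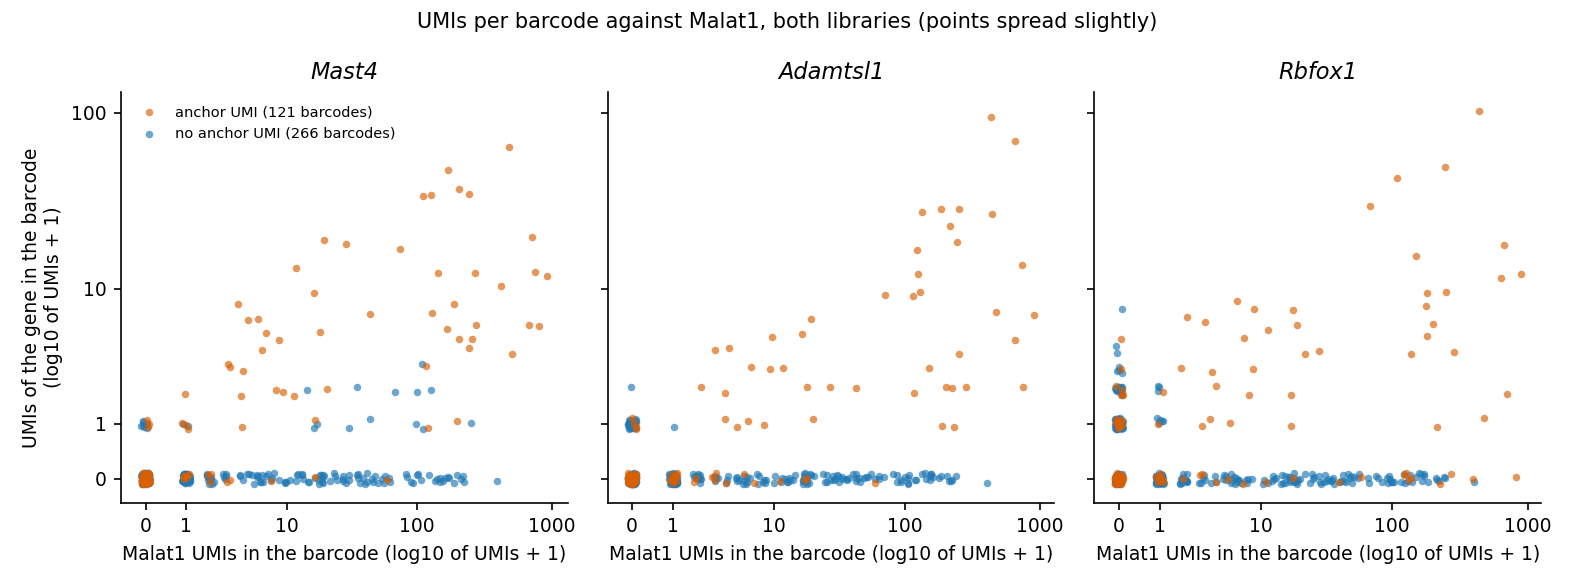
UMIs of each gene (y axis) against Malat1 UMIs (x axis) per barcode, both on a log10(UMIs + 1) scale, for the barcodes of both libraries with a UMI of Malat1, of an anchor or of 1 of the 3 genes; orange points have an anchor UMI and blue points have none, and points are spread slightly so that equal counts can be seen. Blue points have at most 3 UMIs of Mast4 and 2 of Adamtsl1 at every Malat1 count, and the blue Rbfox1 points above 1 UMI lie at 0 or 1 Malat1 UMI.

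Where the anchor was present and Malat1 was not, Mast4 and Adamtsl1 were scarce as well. Among such barcodes, Mast4 was found in 2 of 33 in replicate 1 and 1 of 22 in replicate 2, Adamtsl1 in 2 and 2, and Rbfox1 in 12 and 4. These barcodes had a median mitochondrial share of 94.7% and 91.5%, and 27 of the 33 and 20 of the 22 carried exactly 1 anchor UMI. In barcodes with neither, Mast4 was found in 5 of 807 and 3 of 767.

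The share of RNA from long genes depended on the length limit. Genes over 100 kb gave 37.1% of the UMIs outside mitochondrial and haemoglobin genes in anchor-positive barcodes of replicate 1 and 36.1% in replicate 2, against 34.2% and 36.1% in leukocyte-marker barcodes. Genes over 200 kb gave 21.2% and 21.3%, against 16.7% and 18.1%. Genes over 500 kb, the size of the 3 genes, gave 5.50% and 6.30%, against 3.35% and 3.19%, and without the 3 genes 4.86% and 5.39%, against 3.34% and 3.17%. The locus Gm42418, which overlaps ribosomal RNA, was left out of these shares. Among 225 protein-coding genes over 500 kb, 174 were detected in anchor-positive barcodes, with a median of 6 UMIs and 10232 in all, and 150 in leukocyte-marker barcodes, with a median of 1 and 5953 in all. By UMIs over both libraries, Mast4 (550), Adamtsl1 (475) and Rbfox1 (442) ranked 2, 4 and 5 among the 225 in anchor-positive barcodes. In leukocyte-marker barcodes they had 19, 2 and 3 UMIs and ranked 44, 84 and 72. Corrected for gene length, Mast4 had 91.4 UMIs per 100 kb of gene in anchor-positive barcodes and was the highest of the 225. Adamtsl1 had 52.0 and ranked 3, and Rbfox1 had 29.0 and ranked 11.

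Directions were counted for genes with at least 20 UMIs, over all barcodes. A gene that reached this number mainly through 1 group was largely bound to be higher there. Of all 4868 such genes, 30.4% were higher and 30.8% lower in anchor-positive than in leukocyte-marker barcodes per UMI in both libraries, and 20.9% were higher and 45.4% lower per Malat1 UMI. Of the 1318 among them over 100 kb, 38.8% were higher and 32.3% lower per UMI, and 30.6% were higher and 44.2% lower per Malat1 UMI. Long genes of leukocytes showed the opposite pattern to the 3 genes. Arhgap15, a Rac regulator of blood cells and 647 kb long, had 15 UMIs in anchor-positive barcodes and 798 in leukocyte-marker barcodes. Dock2, another Rac regulator, of 557 kb and on the list that defined the leukocyte-marker barcodes, had 6 and 540. All 14 long leukocyte genes of a list that also holds Ebf1, Aff3 and Prkcb were lower in anchor-positive barcodes in both libraries, per UMI and per Malat1 UMI, though Ptprc, Dock2, Ikzf1 and Bank1 of them helped to define the groups. Each of the 14 also had most of its UMIs in leukocyte-marker barcodes. Of 20 long genes used by many cell types, 11 were higher and 5 lower in anchor-positive barcodes per UMI in both libraries, and 4 were higher and 8 lower per Malat1 UMI. Zbtb20, a widely used transcriptional repressor of 767 kb, had 591 UMIs in anchor-positive and 213 in leukocyte-marker barcodes, and Foxp1, of 597 kb, had 184 and 789. Such pairs, here and below, are UMIs of both libraries together, not scaled to depth. Anchor-positive barcodes held 153864 and 159463 UMIs in replicates 1 and 2, and leukocyte-marker barcodes 233898 and 40294. By library, Zbtb20 had 188 and 187 UMIs in replicate 1 and 403 and 26 in replicate 2. Long neuronal genes were sparsely counted. Of 20, including Cntnap2 and Csmd1, 8 had 20 UMIs or more over all barcodes, and 5 of these were higher in anchor-positive barcodes per UMI in both libraries and 0 lower, with 3 higher and 0 lower per Malat1 UMI. Ptprd, a receptor phosphatase of 2271 kb, led them with 192 UMIs in anchor-positive and 1 in leukocyte-marker barcodes, and Magi2 had 60 and 0, while Cntnap2 had 2 and 1. Ptprd and Magi2 passed the filter mainly through anchor-positive barcodes.

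**Figure D4:**
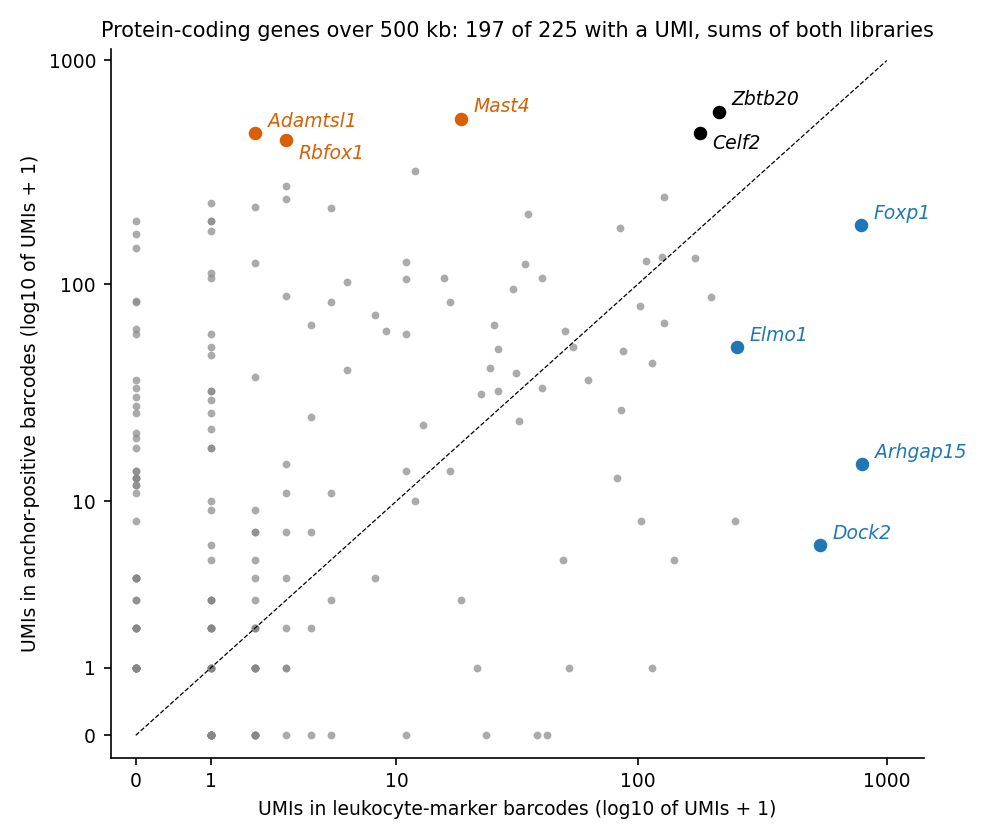
UMIs of protein-coding genes over 500 kb in anchor-positive barcodes (y axis) against leukocyte-marker barcodes (x axis), summed over both libraries, on log10(UMIs + 1) scales; the dashed line marks equal UMIs. Mast4, Adamtsl1 and Rbfox1 lie at the upper left, Arhgap15 and Dock2 at the lower right, and Zbtb20 at the upper right with 591 and 213 UMIs.

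Barcodes with over 20% mitochondrial UMIs kept the genes to different degrees. Mast4 was found in 11 of 49 anchor-positive barcodes of this kind in replicate 1 and 12 of 34 in replicate 2, against 17 of 20 and 15 of 18 with at most 20%. Adamtsl1 was found in 8 and 10 of them, and Rbfox1 in 19 and 14. Relative to the RNA left after mitochondrial and haemoglobin UMIs were set aside, the level of Mast4 over both libraries averaged 3374 ± 629 per 1000000 in these barcodes, against 2449 ± 870 in those with at most 20% (SD, n = 2 each). Adamtsl1 averaged 1840 ± 335 per 1000000, against 2382 ± 205, and Rbfox1 3453 ± 897, against 1807 ± 905, in the same unit. Malat1 was 1.19% and 0.871% of that RNA in anchor-positive barcodes with over 20% mitochondrial UMIs, against 6.75% and 3.46% with at most 20%. Per 100 Malat1 UMIs the values there were 24.5 and 43.8 UMIs for Mast4, 13.4 and 23.8 for Adamtsl1, and 23.6 and 46.9 for Rbfox1, over 216 and 130 Malat1 UMIs.

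Rbfox1 parted from the other genes in barcodes made almost wholly of mitochondrial RNA. In barcodes with no anchor and over 80% mitochondrial UMIs, Rbfox1 was found in 31 of 332 in replicate 1 (9.34%) and 41 of 262 in replicate 2 (15.6%). It ranked 16 and 8 by number of such barcodes among 32263 genes outside the mitochondrial and haemoglobin ones. Mast4 was found in 4 and 1 of them and Adamtsl1 in 3 and 10. In red-cell barcodes, with no marker and at most 20% mitochondrial UMIs, Rbfox1 was found in 4 of 473 and 0 of 493, Adamtsl1 in 3 and 15, and Mast4 in 0 and 0. The proportions of the 3 genes thus changed with the kind of barcode. Rbfox1 gave 26.5% and 32.1% of their summed UMIs in anchor-positive barcodes, but 85.1% and 86.1% of 47 and 79 UMIs in the mitochondrial barcodes without an anchor. Malat1 was found in 26 of 332 and 12 of 262 of the mitochondrial barcodes. Other genes that were more frequent there than in red-cell barcodes were Gm10800, Tmsb4x, Gm10801 and Plce1, the 4 genes ahead of Rbfox1 by difference in share. What sets Rbfox1 apart in these barcodes was not tested.

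**Figure D5:**
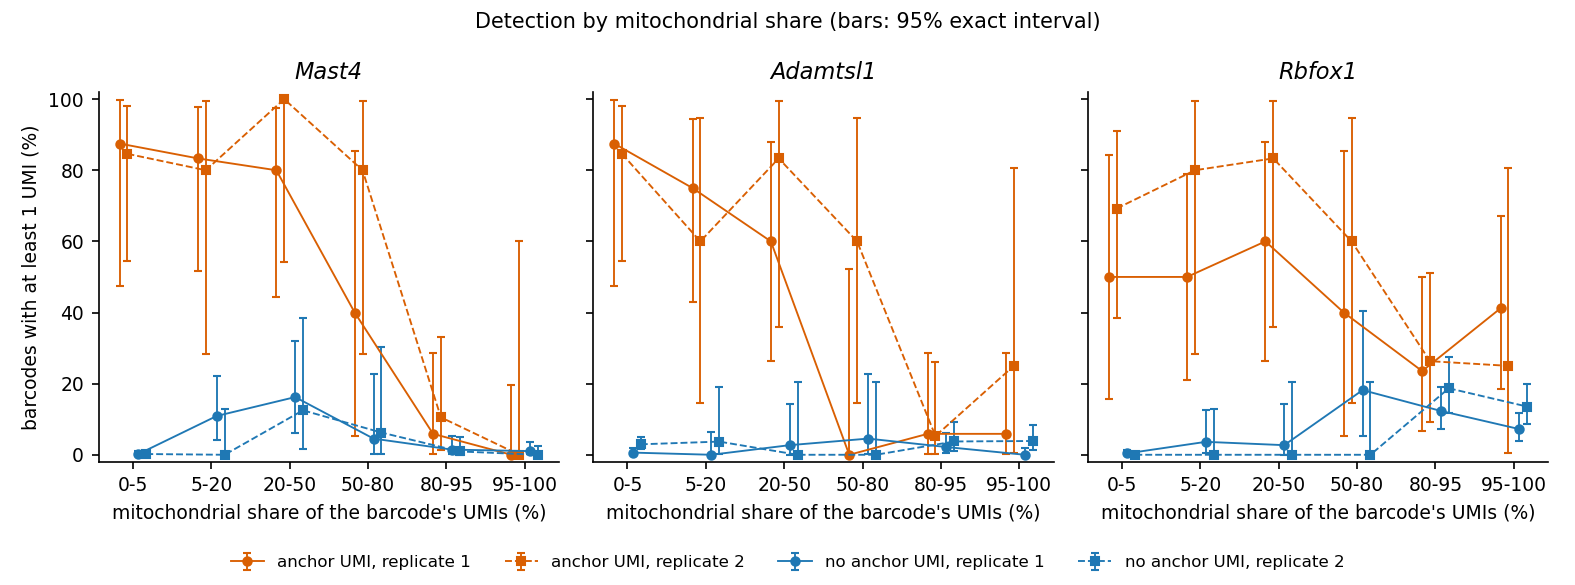
Share of barcodes (%) with at least 1 UMI of each gene by mitochondrial share of the barcode's UMIs, for barcodes with an anchor UMI (orange) and without (blue); circles and solid lines are replicate 1, squares and dashed lines replicate 2, and bars are exact 95% binomial intervals. Mast4 is at 87.5% and 84.6% in anchor-positive barcodes under 5% mitochondrial and at 0% and 0% over 95%, while Rbfox1 in barcodes without an anchor is at 12.3% and 18.7% at 80 to 95% and, in replicate 1, at 18.2% in the 22 barcodes at 50 to 80%.

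The relatives of the 3 genes had fewer UMIs than they did, Thsd4 the most of them. Of the MAST kinases, Mast2 had 26 UMIs in replicate 1 and 15 in replicate 2, Mast3 had 5 and 1, Mast1 had 1 and 0, and Mastl had 0 and 0. Mast2 was also higher per UMI in anchor-positive barcodes in both libraries, with 22 UMIs against 12 in leukocyte-marker barcodes, beside 550 against 19 for Mast4. Of the ADAMTS-like family, Thsd4 (also called ADAMTS-like 6, and 555 kb long) had 111 and 135 UMIs, of which 223 were in anchor-positive and 2 in leukocyte-marker barcodes. Adamtsl3, Adamtsl4, Adamtsl5 and Papln had between 1 and 11 UMIs a library, and Adamtsl2 had 0 and 0. Rbfox2 had 31 and 51 UMIs, 80 of them in anchor-positive and 1 in leukocyte-marker barcodes, and Rbfox3, a neuronal marker, had 1 and 0.

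Matrix and splicing genes around them were also counted by list. Of 19 ADAMTS proteases, 14 were detected and 6 had at least 20 UMIs. Of the 6, 5 were higher and 1 lower in anchor-positive barcodes in both libraries, per UMI and per Malat1 UMI. The shares over all genes are given above. Each of the 6 had most of its UMIs in the group where it was higher, so the filter largely set these directions and they are no finding. Adamts9 had 118 UMIs in anchor-positive and 0 in leukocyte-marker barcodes, Adamts5, an aggrecanase, had 43 and 0, and Adamts6 had 6 and 44. Of 11 microfibril and elastic fibre genes, the matrix to which ADAMTS-like proteins bind, 10 were detected and 4 had at least 20 UMIs: Eln (elastin, 48 and 0), Ltbp4 (48 and 1) and Fbn1 (fibrillin 1, 40 and 0) were higher in anchor-positive barcodes, and Ltbp1 (4 and 31) was lower. The same limit holds for these 4 genes. Of 18 splicing regulators, 11 had at least 20 UMIs, and 4 were higher and 3 lower per UMI in both libraries, but 3 higher and 5 lower per Malat1 UMI. Celf2, of 970 kb, had 477 UMIs in anchor-positive and 178 in leukocyte-marker barcodes, and Mbnl1 had 100 and 347. Among splicing regulators, Rbfox1, which this list does not hold, thus had a count in anchor-positive barcodes close to that of Celf2 but far fewer UMIs in leukocyte-marker barcodes.

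The genes found in most nearly the same barcodes were named by the Jaccard index, the barcodes with both genes over the barcodes with either, averaged over the libraries among 2501 genes found in at least 10 barcodes of each. Since these are the barcodes that the cluster came from, the ranking is a description. For Mast4 the leading 5 were the ephrin Efna5 (0.549), the RNA-binding protein Bicc1 (0.529), the zinc finger protein Bnc2 (0.528), the receptor tyrosine kinase Ror1 (0.522) and the nuclear envelope protein Syne2 (0.504). For Adamtsl1 they were Efna5 (0.448), Bnc2 (0.437), the actin nucleator Cobl (0.416), Bicc1 (0.401) and Mast4 (0.384). For Rbfox1 they were the phospholipase Plce1 (0.284), the IGF-binding proteins Igfbp6 (0.255) and Igfbp5 (0.253), Mast4 (0.251) and Adamtsl1 (0.244). Wt1, of 47.1 kb, ranked 18 for Mast4 and 6 for Adamtsl1 but 80 for Rbfox1. Malat1 ranked 133, 378 and 51. It was found in 168 and 60 barcodes, and the index of so widely found a gene stays low even where most barcodes of the rarer gene have it. Of the Mast4 barcodes, 39 of 46 and 28 of 32 had Malat1. Ptprc ranked 2225, 2471 and 2381. The values of Rbfox1 were lower than those of the other genes. Of its barcodes, 38 of 69 and 34 of 68 held exactly 1 UMI, and 22 of its 69 barcodes in replicate 1 and 21 of 68 in replicate 2 had Mast4.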

How the data were processed

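Whole-blood cells enriched on the iChip were profiled on the 10x Chromium, per the labels' protocols. The values deposited by the authors are UMI counts per gene and barcode, stored as whole numbers with no scaling. The submitters' processing notes name mm10 as build and Seurat 5 and Cell Ranger 7.1.0 as tools, per the labels without a role for each. Barcode calling, doublet removal and intron counting are steps not given in the sources used here, and no doublet filter was applied. Of 32285 gene IDs, 32235 (99.8%) matched GENCODE M21 for position and length.

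Every barcode of both libraries was used, 1857 in all. The 3 genes, the anchors and all gene lists were chosen with earlier results of these data known. A barcode is a cell or droplet of 1 library, not a replicate, so no test was run. Counts were summed per library and barcode group and given as CPM, per 1000000 UMIs outside mitochondrial and haemoglobin genes, or per 100 Malat1 UMIs, with exact binomial (Clopper-Pearson) 95% intervals for shares, exact Poisson intervals for counts and exact conditional intervals for ratios. A floor is 3 UMIs, per library in the fold rule and over both libraries elsewhere. Thinning to 500 UMIs was computed from the hypergeometric chance of keeping at least 1 UMI, and this step and the Jaccard ranking were tested on simulated data. Python 3.11.15, numpy 2.4.6, pandas 2.3.3 and scipy 1.17.1 were used. Genes named are the 3, the anchors, Malat1, Ptprc, relatives with a UMI, the 5 most alike by Jaccard index, and long-gene list members with at least 20 UMIs; others named from the fold rule, the pathway lists and the mitochondrial barcodes were chosen after their values were seen. Alternatives cover the anchor and leukocyte definitions, the mitochondrial filter, depth, denominator, likeness measure, gene length limit and each library left out.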

Additional observations from a re-analysis of the deposited data

How the results depend on the processing

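No paired analysis was possible because the libraries form 1 group. Means of both libraries follow, in the order Mast4, Adamtsl1 and Rbfox1. The share of anchor-positive barcodes with the gene was 46.3%, 40.5% and 47.0%. It was 80.1%, 69.9% and 67.4% with at least 2 anchor UMIs, 84.2%, 78.9% and 61.1% with at most 20% mitochondrial UMIs, 86.6%, 81.2% and 63.2% with at least 100 genes besides, and 30.6%, 22.7% and 28.4% after thinning to 500 UMIs. The ratio to leukocyte-marker barcodes was 34.3, 60.9 and 84.0. With one library left out it ran from 15.6 to 92.2 for Mast4, whose higher value is that of replicate 2 with 1 leukocyte-marker UMI, from 36.0 to a lower bound of 96.3 for Adamtsl1 and from 77.6 to 103 for Rbfox1. Per UMI outside mitochondrial and haemoglobin genes it was 33.9, 42.1 and 63.5, and per Malat1 UMI 25.2, 27.6 and 45.0. With at most 20% mitochondrial UMIs it was 75.9, at least 117 and at least 91.1, and against barcodes with Ptprc 53.7, at least 114 and 187. In every alternative run the ratio stayed above 10, which is no finding, since the genes were chosen from this contrast. Some of these ratios rest on counts of 0 in replicate 2. With at most 20% mitochondrial UMIs, all 9 leukocyte-marker UMIs of Mast4 were in replicate 1. Of the 12 barcodes with Ptprc in replicate 2, 0 had any of the 3 genes. The exact interval of the Mast4 ratio in replicate 1 alone reached down to 9.62.

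The 5 genes most alike were less stable. With at most 20% mitochondrial UMIs, 2 of 5 remained for Mast4, 3 for Adamtsl1 and 0 for Rbfox1, and with Pearson correlation 1 remained for Rbfox1. With one library left out, 3 to 5 remained for Mast4, 1 to 4 for Adamtsl1 and 2 to 3 for Rbfox1. The share of UMIs from long genes in anchor-positive barcodes was 36.6% over 100 kb, 54.8% over 50 kb and 21.2% over 200 kb, against 35.1%, 55.7% and 17.4% in leukocyte-marker barcodes. A limit of 500 kb, added after seeing the data, gave 5.90% against 3.27%, and 5.13% against 3.25% without the 3 genes.

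Splits by mitochondrial share of the barcodes with each gene were added after seeing the data. Malat1 was in 86.1% of Mast4 barcodes, in 100% with at most 20% mitochondrial UMIs and in 71.6% with more. An anchor was in 40.9% of Rbfox1 barcodes, in 85.7% and 30% of them by the same split, and Malat1 was in 35.1%, 85.7% and 22.7%. Depth limits low counts: 0 to 2 UMIs stand behind each leukocyte-marker value except that of Mast4 in replicate 1, and the 30 leukocyte-marker barcodes of replicate 2 can bound little.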

Other observations

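Not all long genes were scarce in red-cell barcodes, those with no marker and at most 20% mitochondrial UMIs. Gphn, which codes for the scaffold protein gephyrin and spans 458 kb, was found in 460 of 473 of them in replicate 1 (97.3%) and 475 of 493 in replicate 2 (96.3%), where Mast4 was found in 0 and 0. Cmss1, of 305 kb, had 34128 UMIs in the unmarked barcodes of both libraries together, against 2658 in anchor-positive and 3237 in leukocyte-marker barcodes. These counts are not scaled to depth: unmarked barcodes held 3501742 UMIs in replicate 1 and 3087674 in replicate 2. Anchor-positive barcodes held 153864 and 159463, and leukocyte-marker barcodes 233898 and 40294. Genes over 100 kb gave 17.6% and 20.7% of the UMIs outside mitochondrial and haemoglobin genes in unmarked barcodes, and without Cmss1 and Gphn 9.44% and 11.2%. In anchor-positive barcodes the share without them was 35.7% and 35.1%, and in leukocyte-marker barcodes 32.9% and 34.2%. These genes were named after their values were seen.

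Other nuclear long non-coding RNAs differed in where they were found. Meg3 had 110 and 89 UMIs in all, of which 198 of both libraries together were in anchor-positive barcodes and 0 in leukocyte-marker barcodes. Neat1 had 195 UMIs in anchor-positive and 118 in leukocyte-marker barcodes, and Kcnq1ot1 had 85 and 28. Lrp1b, a lipoprotein receptor gene of 2058 kb on the long neuronal list, had 11 UMIs in anchor-positive, 5 in leukocyte-marker and 110 in unmarked barcodes. Ptprd on the same list had 192, 1 and 14. The unmarked barcodes held far more UMIs than the others, so these unscaled counts do not give the direction per UMI.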
